A study of Mus musculus with 6 samples.

Results

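KRAB zinc finger genes encode a large family of DNA-binding repressors. An array of zinc fingers reads the DNA sequence and the KRAB domain recruits the corepressor TRIM28 (KAP1), and many members silence transposable elements. In the mouse these genes sit in tandem clusters that grew by repeated duplication, so that neighbouring stretches of a cluster resemble each other in sequence. CTCF, itself a zinc finger protein without a KRAB domain, occupies insulators and chromatin domain borders. In ChIP-seq, a read that matches several near-identical copies cannot be placed at one of them. BRD2, the protein missing from the clones studied here, is a BET-family reader of acetylated histones.

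The members described here are the CTCF peaks in 4 mm9 windows laid over tandem zinc finger gene clusters. The windows are chr2:174500001-178500000, chr4:144000001-147500000, chr13:62000001-63500000 and chr13:66000001-68500000, 11.5 Mb in all. Peaks were selected on their midpoints, and the windows were chosen by position with earlier peak counts and overlaps of these lists in view, so the counts and overlaps are given as descriptions: 146 of 29769 clone D peaks, 194 of 32308 clone C8 peaks and 236 of 40271 wild-type peaks lay inside, 576 of 102348 peaks together. Peaks that overlapped by at least 1 bp were joined into regions, giving 354 regions in the windows of 48367 in the genome. Genes that a RefSeq table of another mouse build, GRCm38.p6, lists on these chromosomes include Zfp931, Zfp966 and Zfp967 on chromosome 2, and Zfp600, Rex2 and Zfp534 on chromosome 4. On chromosome 13 they include Zfp808, Zfp934, Zfp935, Zfp273 and Rsl1, a KRAB zinc finger gene that keeps male-specific liver genes low in female mice. That table was used for names only. No mm9 annotation was used, so no peak was assigned to a gene and the content of the windows was not checked against one.

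The series holds 6 samples of G1E-ER4 cells, a mouse erythroblast line without GATA1 in which a fusion of GATA1 to the estrogen receptor is switched on by estradiol. All were treated with 100 nM estradiol for 24 hours. CTCF ChIP libraries came from clone D (D_Brd2KO) and clone C8 (C8_Brd2KO), each a single line made with CRISPR/Cas9 in which BRD2 was not detected, and from wild-type G1E-ER4 cells, 1 library each. The other 3 samples are inputs, not analysed here. With 1 wild-type library no test of BRD2-null against wild-type cells was possible, and the values below are descriptions. Binomial intervals are exact 95% intervals and cover counting error only. The authors' lists give a fold enrichment, a −log10 p and a false discovery rate for each peak. They served only for description and ranking inside 1 list, and a percentile below is the standing of a peak's enrichment in its own list, where 100 is the strongest. Library depth is unknown, and a site missing from a list was not called there, which does not show that it was unbound. The lists also differed in their weak peaks: the false discovery rate (FDR) did not exceed 0.05 for 94.8% of clone D peaks, 85.4% of clone C8 peaks and 52.7% of wild-type peaks. In the windows fewer met that limit: 130 of 146 in clone D, 128 of 194 in clone C8 and 96 of 236 in wild type.

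With the 4 windows pooled, CTCF peaks of the deposited lists were less dense inside than beside them in clone D. In clone C8 and wild type the interval of the pooled ratio held 1. This contrast between the libraries depended on flank length, on the chromosome 4 window and on weak peaks. Flanks were taken on both sides of a window, each as long as the window, without any other window, and were cut on chromosome 2 at the last peak of the chromosome (181.7 Mb). Clone D had 12.7 peaks per Mb in the windows and 17.7 in the flanks, a ratio of 0.718 (0.589 to 0.872). Clone C8 had 16.9 and 19.2, a ratio of 0.880 (0.737 to 1.05). Wild type had 20.5 and 22.6, a ratio of 0.910 (0.775 to 1.07). Its single windows were unlike: the ratio was 1.35 (1.05 to 1.75) on chromosome 2 and 0.541 (0.399 to 0.722) on chromosome 4. In the chromosome 13 windows it was 1.02 (0.604 to 1.68) and 1.00 (0.673 to 1.465). The wild-type ratio on chromosome 2 was 1.03 (0.823 to 1.29) with flanks 2 times as long. With an FDR limit of 0.05, set after seeing the data, it was 0.809 (0.543 to 1.19). Between the first and last peaks of each chromosome the density was 11.5 peaks per Mb in clone D, 12.5 in clone C8 and 15.6 in wild type. Pooled, the windows lay above these values in each library, but clone D had 10.25 peaks per Mb in the chromosome 2 window and 8.8 in the second chromosome 13 window. With the lists cut to the 29769 peaks of the shortest by enrichment, the ratio of windows to flanks was nearly the same in all libraries, at 0.718 in clone D, 0.715 (0.584 to 0.871) in clone C8 and 0.712 (0.584 to 0.865) in wild type. With flanks 2 times as long it was 0.690 (0.573 to 0.827) in clone D, 0.838 (0.711 to 0.983) in clone C8 and 0.855 (0.737 to 0.989) in wild type, and none of the intervals held 1. In clone D the interval held 1 with flanks of 0.5 times the length (0.864, 0.688 to 1.08) and without the chromosome 4 window (0.827, 0.632 to 1.08). Without that window wild type stood at 1.23 (1.008 to 1.499). The flanks were themselves uneven: wild type had 30.9 peaks per Mb after the chromosome 2 window and 11.5 before it, and 42.0 after the chromosome 4 window and 21.4 before it.

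The windows differed in which library held more calls. On chromosome 2, clone D had 41 peaks and clone C8 64, against 109 in wild type. Relative to wild type this was a ratio of 0.376 (0.256 to 0.543) for clone D, where the whole list stood at 0.739. For clone C8 it was 0.587 (0.424 to 0.807), where the whole list stood at 0.802. On chromosome 4 the order was not that of the lists: clone D had 60 peaks and clone C8 73, against 60 in wild type, with ratios of 1.00 (0.687 to 1.45) for clone D and 1.22 (0.853 to 1.74) for clone C8. The first chromosome 13 window had 23 peaks in clone D, 24 in clone C8 and 25 in wild type. The other chromosome 13 window had 22, 33 and 42. Clone D on chromosome 2 stood below the ratio of the whole lists, and clone C8 on chromosome 4 stood above it. The intervals of the other ratios to wild type held the ratio of the whole lists. The windows were chosen with earlier counts of these lists in view, so this is a description and no test. With an FDR limit of 0.05, chosen after seeing the data, the chromosome 2 counts no longer followed that order: 39 peaks in clone D and 46 in clone C8, against 40 in wild type. Under the same limit chromosome 4 held 50 peaks in clone D and 39 in clone C8, against 22 in wild type.

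**Figure D1:**
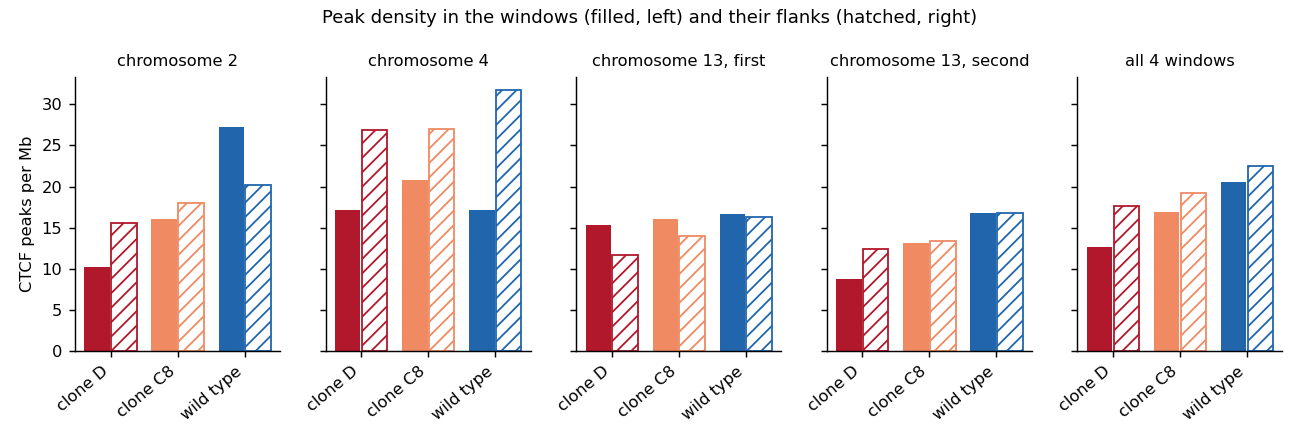
CTCF peaks per Mb in each window (filled bars) and its flanks (hatched bars) in clone D, clone C8 and wild type, with all 4 windows pooled at the right. In the chromosome 2 window clone D had 10.25 peaks per Mb, against 27.25 in wild type, while on chromosome 4 all 3 libraries lay below their flanks.

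The chromosome 2 window held a ladder of strong CTCF sites. Of its 128 regions, 26 were called in all 3 lists with a −log10 p that reached 20 in each. They stood one after another at a median spacing of 100.45 kb between centres (quartiles 86.6 and 129.8 kb, 25 spacings). Of these spacings, 15 lay between 75 and 150 kb, a band that was not planned and was not counted in the flanks or the genome. In the flanks of this window the 56 such regions had a median spacing of 34.3 kb (quartiles 14.2 and 84.7), and over the genome, where 22.7% of regions met the same condition, it was 63.4 kb (20.8 and 169.8). The 14 such regions of the chromosome 4 window had a similar median of 94.8 kb, with wider quartiles (39.1 and 265.3). The shortest spacing on the chromosome 2 ladder was 39.6 kb, against 3.32 kb in its flanks, and the longest was 436.75 kb. These spacings hold for sites that reached 20 in every list. Regions that reached it in 1 or 2 lists only can lie closer to a rung. The rung that stood highest over the 3 lists was chr2:174758014-174758831, with enrichments of 73.84 in clone D (percentile 99.8), 73.93 in clone C8 (98.8) and 114.15 in wild type (99.5). The next, chr2:177792779-177793489, had 55.74 in clone D, 63.95 in clone C8 and 94.87 in wild type, percentiles of 98.5, 97.1 and 98.6.

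Most rungs stood higher in the wild-type list than in the clone lists. Over the 26 sites the enrichment ran from 17.46 to 73.84 in clone D (median 25.1), from 19.95 to 73.93 in clone C8 (median 47.9) and from 29.80 to 128.86 in wild type (median 103.2). Since enrichments of different lists are not on a common scale, the standing within each list was compared. The wild-type list is the longest and holds the most weak peaks, which in itself raises the percentile of a strong peak there. The median percentile was 70.4 in clone D, 89.5 in clone C8 and 99.15 in wild type. Of the 26 sites, 1 in clone D, 0 in clone C8 and 14 in wild type were at the 99th percentile or above. Counting all peaks of the window, 1 of 41 clone D peaks, 0 of 64 clone C8 peaks and 15 of 109 wild-type peaks stood there. In the whole lists 1.03%, 1.02% and 1.01% of peaks do so by construction. One rung in the middle of the window was chr2:176289266-176289999, with an enrichment of 22.06 in clone D (percentile 63.1), 46.51 in clone C8 (88.4) and 124.89 in wild type (99.7). It was chosen for this description after its values were seen. Clone D stood below wild type in percentile at 24 of the 26 sites and clone C8 at 25. Over all 10963 regions of the same kind in the genome the shares were 65.1% and 61.6%, and in the flanks of the 4 windows 84.3% and 73.6% of 140. Clone D stood below clone C8 at 20 of the 26.

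**Figure D2:**
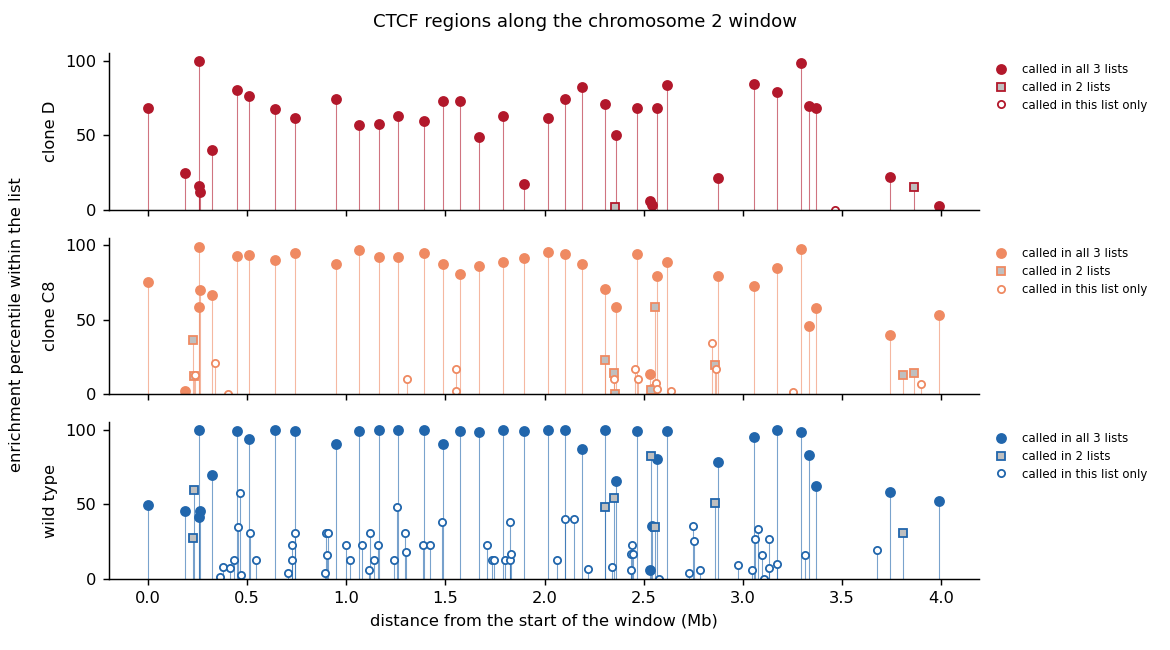
Enrichment percentile of every CTCF region along the chromosome 2 window (distance from its start, in Mb) in clone D, clone C8 and wild type; filled circles mark regions called in all 3 lists, grey squares regions called in 2 and open circles regions called in the list shown only. Of the 38 filled circles 26 are the strong sites, most of which stand lower in clone D than in wild type. Open circles number 1 (clone D), 16 (clone C8) and 63 (wild type).

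In the deposited lists, most of the calls private to 1 library in this window were wild-type ones. Private calls, those overlapped in neither other list, were 1 of 41 in clone D, 16 of 64 in clone C8 and 63 of 109 in wild type. Over the whole lists such calls made up 7.64% of clone D peaks, 11.9% of clone C8 peaks and 31.4% of wild-type peaks. With lists cut to equal length by enrichment the private calls were 2 in clone D, 9 in clone C8 and 18 in wild type, and with the FDR limit of 0.05 they were 3, 9 and 4, so wild type no longer had the most. Of the 63 in wild type, 61 had a −log10 p below 10. They were spread over the window: 14 of its 16 bins of 250 kb held between 1 and 8 of them, and the first and the last held 0. The strongest was chr2:174962324-174962834, with an enrichment of 27.72, a −log10 p of 17.3 and a percentile of 57.6. The strongest in clone C8 alone was chr2:177342977-177343242 (enrichment 15.95, percentile 34.7), and the single one of clone D was chr2:177968140-177968590 (5.52, percentile 0.180). The clones shared 2 regions that wild type lacked (1.56%, against 4.48% in the genome). The higher of them, chr2:178364565-178364883, had enrichments of 9.37 in clone D and 11.17 in clone C8. Clone D missed 8 regions that clone C8 and wild type held (6.25%, against 4.54% in the genome and 8.28% in the flanks). The first by the worse of its percentiles was chr2:177055136-177055541, with an enrichment of 25.21 in clone C8 and 17.02 in wild type. No region was missing from clone C8 alone (2.70% in the genome).

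The chromosome 4 window held weak calls that differed in each library. Of its 135 regions, 24 were called in all 3 lists (17.8%, against 49.5% of regions in the genome and 58.6% in its flanks). Clone D alone held 29 (21.5%, against 4.70% in the genome) and clone C8 alone 40 (29.6%, against 7.94%). Wild type alone held 32 (23.7%, against 26.2%), so only the clone shares stood above the genome. These counts depended on the weak end of the lists: they were 34 in clone D, 11 in clone C8 and 10 in wild type with lists cut to equal length, and 27, 15 and 1 with the FDR limit of 0.05. The median enrichment was 8.40 in clone D (percentile 10.2) and 10.3 in clone C8 (10.2), against 17.8 in wild type (36.9). In its flanks the median percentiles were 50.1, 56.1 and 55.4. Peaks with a −log10 p below 10 made up 58.3% of clone D peaks, 65.8% of clone C8 peaks and 60.0% of wild-type peaks in the window, against 26.2%, 30.6% and 44.2% of the whole lists. The weak calls of each clone were rarely found in the other. Of 35 such clone D peaks 10 were overlapped in clone C8 (28.6%, against 60.6% in the whole list) and 5 in wild type (14.3%, against 54.6%). Of 48 such clone C8 peaks 8 were overlapped in clone D (16.7%, against 46.9%) and 5 in wild type (10.4%, against 48.8%). Of 36 in wild type 4 were overlapped in clone D (11.1%, against 25.8%) and 5 in clone C8 (13.9%, against 28.6%).

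The calls without a partner also lay in different stretches of the chromosome 4 window. Its first 0.75 Mb held 1 region private to clone D and 1 private to clone C8, against 11 private to wild type. From 0.75 to 3.0 Mb there were 27 private to clone D and 37 private to clone C8, against 13 private to wild type. These stretches were set after the positions were seen. The last 250 kb were denser and more often shared: 11 of the 18 regions there were called in all 3 lists, and the density was 44.0 peaks per Mb in clone D and 48.0 in clone C8, against 72.0 in wild type. Without it, clone D had 49 peaks and clone C8 61, against 42 in wild type, and 13 of 117 regions were called in all 3 lists. The strongest call in clone D alone was chr4:145214865-145215369 (enrichment 11.53, percentile 27.1). In clone C8 alone chr4:144018749-144019123 (16.80, percentile 37.3, −log10 p 8.39) was tied for the highest enrichment with another private region, whose −log10 p was 14.2, and in wild type alone chr4:147389496-147389870 (25.63, percentile 54.4).

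**Figure D3:**
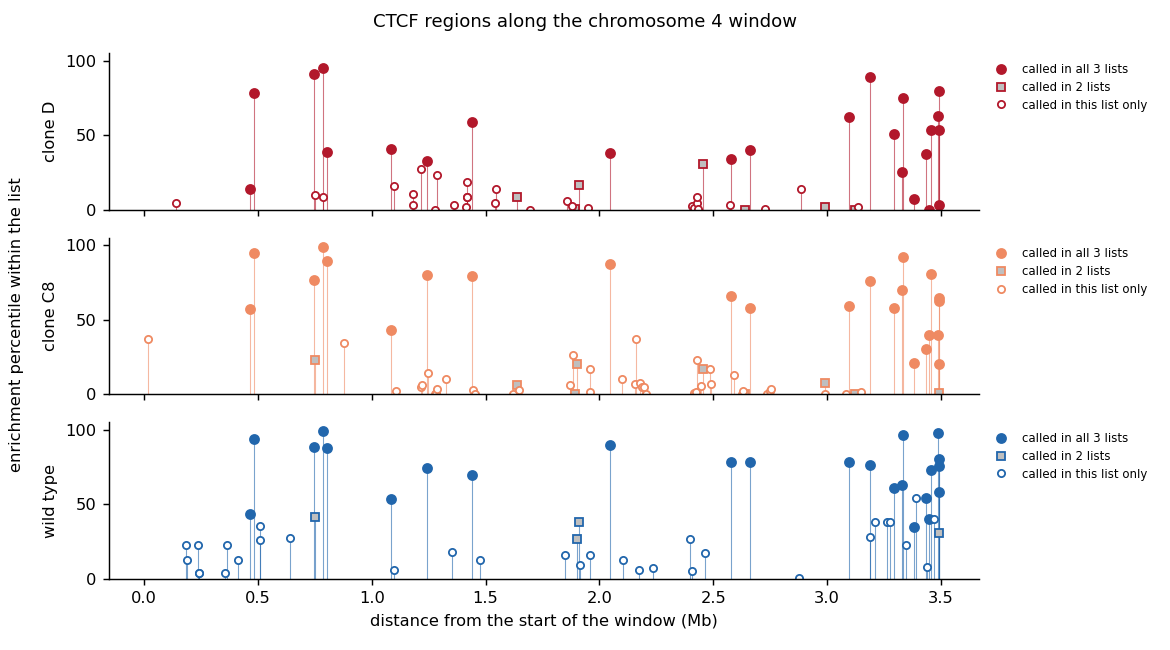
Enrichment percentile of every CTCF region along the chromosome 4 window (distance from its start, in Mb) in clone D, clone C8 and wild type, with the symbols of the chromosome 2 map. Open circles, called in 1 list only, lie low and at different places in each panel: 29 in clone D, 40 in clone C8 and 32 in wild type.

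Of the chromosome 4 regions, 14 were called in all 3 lists with a −log10 p that reached 20 in each, at a median spacing of 94.8 kb with quartiles of 39.1 and 265.3 kb. Their median percentile was 62.7 in clone D, 70.9 in clone C8 and 78.3 in wild type. The leading site was chr4:144784788-144785380, with enrichments of 45.37 in clone D (percentile 95.2), 77.52 in clone C8 (99.1) and 103.09 in wild type (99.2). The next was chr4:144480326-144481032, with 28.98 in clone D (78.1), 57.32 in clone C8 (95.1) and 69.15 in wild type (93.4). The 6 regions of both clones that wild type lacked (4.44%, against 4.48% in the genome) were weak. The first was chr4:146453836-146454349 with enrichments of 12.35 in clone D and 11.63 in clone C8. Regions missing from clone D only numbered 3 (2.22%, against 4.54% in the genome), led by chr4:144751165-144751615 (12.92 in clone C8 and 19.34 in wild type). The single region missing from clone C8 only (0.741%, against 2.70% in the genome) was chr4:145908453-145908991 (9.58 in clone D and 17.84 in wild type).

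The chromosome 13 windows were the smallest, and their regions private to clone D were too few to set apart from the share in the genome. In the first, 15 of 34 regions were called in all 3 lists (44.1%, against 49.5% in the genome). Clone D alone held 0 (4.70% in the genome), clone C8 alone 2 (5.88%, against 7.94%) and wild type alone 9 (26.5%, against 26.2%). Of the 4 windows, it was the only one where the strong sites called in all lists (7) did not stand higher in wild type at the median: 81.3 in clone D, 83.3 in clone C8 and 77.2 in wild type. The leading site, chr13:62571106-62571919, had enrichments of 61.75 in clone D (percentile 99.2), 81.39 in clone C8 (99.3) and 85.25 in wild type (97.6). It was followed by chr13:63433695-63434493, with 30.48, 41.25 and 46.92 in clone D, clone C8 and wild type. This window also held 7 regions that the clones shared and wild type lacked, 20.6% of its regions against 4.48% in the genome. Their number depended on weak peaks. In the deposited lists, 22 of 23 clone D peaks of this window had a partner in clone C8, and 15 in both other lists. With a −log10 p of at least 10 these were 15 and 13 of 20 peaks. With the FDR limit of 0.05 they were 19 and 14 of 22. All of the 7 regions but the first named next were looked at after their values were seen. The one with the best standing was chr13:62346524-62347045, with a −log10 p of 25.03 in clone D (percentile 54.7) and 25.66 in clone C8 (percentile 67.1). A second, chr13:62957540-62958082, passed 20 in clone D alone, with 29.1 there and 14.7 in the C8 list. In the 4 windows no other clone peak with a −log10 p of at least 20 lacked a wild-type partner. The strongest peak of clone C8 alone was chr13:62488259-62488580 (14.21, percentile 28.2) and that of wild type alone chr13:62582496-62582737 (31.72, percentile 63.7). The region missing from clone C8 only (2.94%, against 2.70% in the genome) was chr13:63146823-63147224, with 17.29 in clone D and 17.84 in wild type.

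In the other chromosome 13 window, 18 of 57 regions were called in all 3 lists (31.6%, against 49.5% in the genome). Clone D alone held 2 (3.51%, against 4.70%), clone C8 alone 12 (21.1%, against 7.94%) and wild type alone 21 (36.8%, against 26.2%). The 6 strong sites common to all lists had a median percentile of 75.4 in clone D, 79.4 in clone C8 and 90.5 in wild type, at a median spacing of 222.1 kb. The leading site was chr13:67209314-67210217, with enrichments of 55.42 in clone D, 53.60 in clone C8 and 79.51 in wild type (percentiles 98.5, 93.2 and 96.7). Next was chr13:67092421-67093044, with 28.82, 36.75 and 45.60 in the same order. The strongest calls of single libraries were weak to moderate: chr13:67906795-67907156 in clone D (8.23), chr13:66593615-66594040 in clone C8 (12.92) and chr13:67452552-67452946 in wild type (23.79). Regions held by all but 1 library were chr13:67945081-67945414 (9.06 in clone D, 11.63 in clone C8), chr13:67582472-67582900 (7.41 in clone D, 10.72 in wild type) and, as the higher of the 2 missing from clone D, chr13:66643532-66644100 (16.80 in clone C8, 31.72 in wild type). In that order, regions of these kinds made up 1.75%, 1.75% and 3.51% of the window, against 4.48%, 2.70% and 4.54% of the genome.

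**Figure D4:**
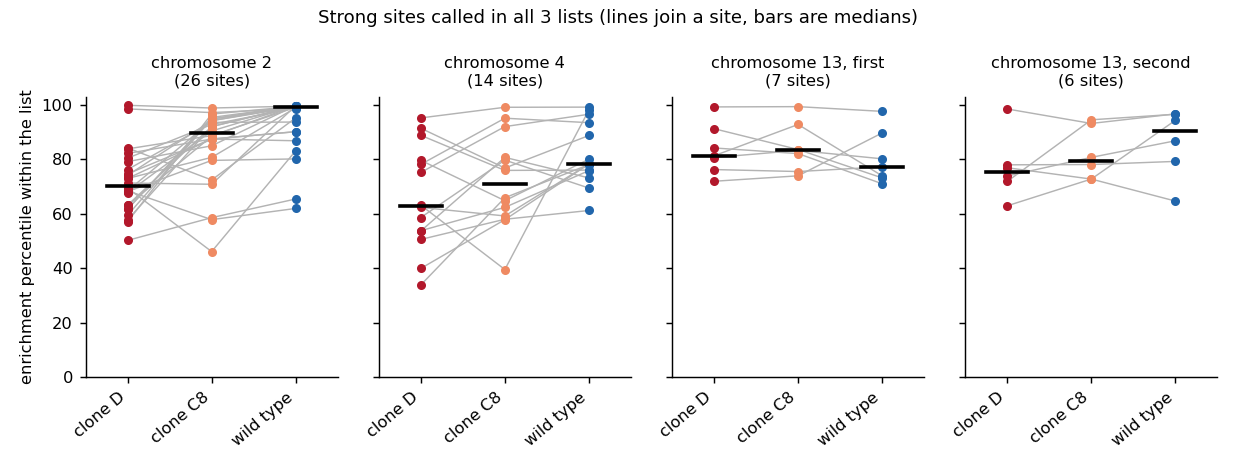
Enrichment percentile within each list of the 53 sites in the windows called in all 3 lists with a −log10 p that reached 20 in each, for clone D, clone C8 and wild type; a line joins the values of a site and the bar is the median. On chromosome 2 the medians are 70.4, 89.5 and 99.15, and in the first chromosome 13 window 81.3, 83.3 and 77.2.

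Over the 4 windows pooled, peaks were less often found in another list than peaks of the flanks in each direction, but not in every window. Of 146 clone D peaks, 111 were overlapped in clone C8 (76.0%, 68.3 to 82.7) and 98 in wild type (67.1%, 58.9 to 74.7). The flanks gave 88.5% for both, and the whole list 87.9% and 85.1%. Of 194 peaks of clone C8, 111 had a partner in clone D (57.2%, 49.9 to 64.3) and 108 in wild type (55.7%, 48.4 to 62.8), against 81.6% and 84.4% in the flanks and 81.3% and 81.4% in the whole list. Of 236 wild-type peaks, 98 had a partner in clone D (41.5%, 35.2 to 48.1), and clone C8 held partners of 108 (45.8%, 39.3 to 52.4), against 69.8% and 71.9% in the flanks and 63.1% and 65.3% in the whole list. The windows held more weak peaks, so the overlap was also set beside that of whole-list peaks of equal enrichment, taken in 50 bins of the list. These shares were 79.6% and 76.7% for clone D, 67.5% and 69.1% for clone C8, and 52.2% and 54.2% for wild type, in the order of lists just given. The share in the windows lay below that value in all 6 directions, though for clone D in clone C8 the interval held it. The windows were chosen with earlier overlaps of these lists in view, so this is a description and no test. The flanks lay within a few percentage points of the shares of equal enrichment: above them in all 6 directions, but, with peaks matched on −log10 p instead, below in 2 (clone D in clone C8, 88.5% against 88.9%, and clone C8 in clone D, 81.6% against 82.2%).

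The direction of the mismatch differed between chromosomes 2 and 4 in the deposited lists. On chromosome 2, clone D peaks were found elsewhere at least as often as peaks of equal enrichment (97.6% in clone C8 against 89.2%, 92.7% in wild type against 87.5%) and as often as in its flanks (91.1% and 88.4%). Clone C8 peaks there were found at 62.5% in clone D, against 75.2%, and at 71.9% in wild type, against 76.8%. Wild-type peaks were found at 34.9% in clone D, against 48.9%, and at 42.2% in clone C8, against 50.7%. On chromosome 4 all 6 directions were low in the deposited lists: 50.0% in clone C8 and 41.7% in wild type for clone D (68.0% and 64.6% at equal enrichment), and 41.1% in clone D and 37.0% in wild type for clone C8 (56.8% and 59.5%). Of the 60 wild-type peaks there, clone D held partners of 25 and clone C8 of 27 (52.0% and 53.9% at equal enrichment), and these 2 intervals held the values of equal enrichment. Each clone's share in the other clone and its share in wild type had overlapping intervals. With lists cut to equal length, clone D peaks stood at 41.7% in each other list, down from 50.0% in clone C8 and unchanged in wild type. Clone C8 peaks reached 65.8% in clone D and 68.4% in wild type, and wild-type peaks 67.6% in clone D and 70.3% in clone C8. With the FDR limit of 0.05, 23 of 50 clone D peaks had a partner in clone C8 and 20 in wild type, while clone C8 stood at 59.0% in clone D and 53.8% in wild type, and wild type at 90.9% (in clone D) or 95.5% (with clone C8). With lists limited to a −log10 p from 10 upwards, all 6 shares lay between 80.0% and 83.3%.

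The chromosome 13 windows held fewer peaks and gave mixed directions. In the first, 22 of 23 clone D peaks had a partner in clone C8 (95.7%, against 88.6% in its flanks) and 16 in wild type (69.6%, against 85.7%). Of its 24 clone C8 peaks, 22 had a partner in clone D (91.7%, against 73.8% in the flanks) and 15 in wild type (62.5%, against 73.8%). Of its 25 wild-type peaks, 16 had a partner in clone D (64.0%, against 61.2%) and 15 in clone C8 (60.0%, against 63.3%). In the second, clone D stood at 86.4% in each other list (85.5% and 91.9% in the flanks). Clone C8 stood there at 57.6% in clone D and 60.6% in wild type (79.1% and 85.1% in the flanks), and wild type at 45.2% and 47.6% (67.9% for both in the flanks).

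**Figure D5:**
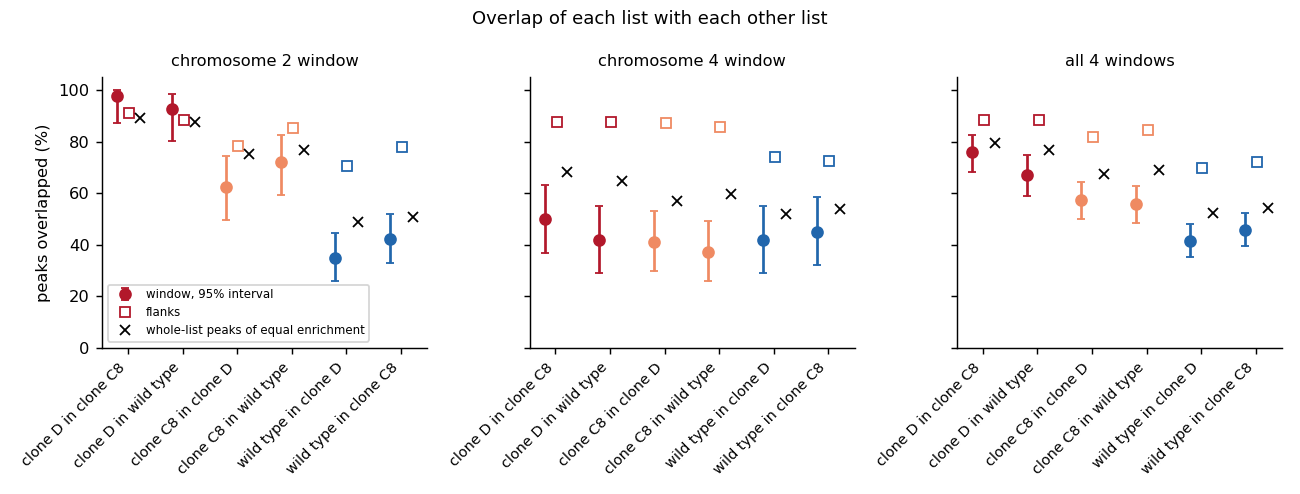
Share of the peaks of one list overlapped by a peak of another, for the chromosome 2 window, the chromosome 4 window and all 4 windows; circles with exact 95% binomial intervals are the windows, open squares the flanks and crosses whole-list peaks of equal enrichment. On chromosome 4 the circles lie at 37.0% to 50.0%, below squares at 72.5% to 87.8%.

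Where the −log10 p reached 20, private calls numbered 0 of 60 in clone D, 0 of 74 in clone C8 and 0 of 66 in wild type. They are near the background, since the whole lists had 0.00667%, 0.0479% and 0.232%. All 60 in clone D were found in clone C8 and 58 in wild type, where the whole list gave 99.8% and 99.4%. Of the 74 in clone C8 all were found in clone D and 73 in wild type (99.8% and 99.5% in the whole list). Of the 66 in wild type 64 were found in clone D and all in clone C8 (99.2% and 99.6%). These counts are near the background as well. Among peaks of any strength, private calls were 32 of 146 in clone D (21.9%), 70 of 194 in clone C8 (36.1%) and 125 of 236 in wild type (53.0%). The whole lists had 7.64%, 11.9% and 31.4%. The median percentiles of the private calls in the windows were 4.38, 6.22 and 16.4. Regions missing from wild type only numbered 16 of 354 (4.52%, against 4.48% in the genome), those missing from clone D only 13 (3.67%, against 4.54%) and those missing from clone C8 only 3 (0.847%, against 2.70%). These shares of the windows were near or below those of the genome, while the share called in all 3 lists was 26.8%, against 49.5%.

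Neighbouring peaks stood farther apart in the windows than in the flanks. The median gap between the end of a peak and the start of the next was 63.48 kb in clone D, 34.7 kb in clone C8 and 28.2 kb in wild type, against 18.0, 16.8 and 15.7 kb in the flanks. Over the whole lists it was 25.7, 24.8 and 24.5 kb. Gaps under 5 kb made up 14.1% in clone D, 17.9% in clone C8 and 20.3% in wild type, against 24.0%, 23.6% and 25.7% in the flanks. Median peak widths were 504 bp in clone D, 429 bp in clone C8 and 395 bp in wild type, close to those of the whole lists (489, 417 and 402 bp). Few peaks without a partner had one close by, in the windows and in the flanks. Of 35 clone D peaks absent from clone C8, 6 had a clone C8 peak within 1 kb, against 4 of 42 in the flanks. Of 138 wild-type peaks absent from clone D, 5 had a clone D peak that near, against 9 of 141. The median distances to the nearest such peak were 11.3 and 30.7 kb, against 10.7 and 13.4 kb in the flanks. Clone D peaks absent from wild type gave 3 of 48 (flanks 3 of 42). Clone C8 peaks gave 5 of 83 absent from clone D (3 of 73) and 2 of 86 absent from wild type (3 of 62). Wild-type peaks absent from clone C8 gave 5 of 128 (12 of 131).

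The longest stretches without a peak were nearly the same in all lists in the second chromosome 13 window and differed on chromosome 4. In that chromosome 13 window the stretch measured 328.9 kb in clone D (chr13:67977723-68306640), 329.0 kb in clone C8 and 328.8 kb in wild type. In the first chromosome 13 window, the stretches measured 136.2 kb in clone D and 136.5 kb in clone C8, at chr13:62728981-62865133 in clone D, and 187.7 kb in wild type at another place (chr13:63148257-63335914). On chromosome 2 the stretches overlapped near the end of the window, with 273.5 kb in clone D (chr2:177968591-178242117), 369.4 kb in clone C8 (chr2:177872643-178242015) and 307.3 kb in wild type (chr2:177872809-178180120). On chromosome 4 each lay apart: 356.9 kb in clone D (chr4:146047584-146404462), 443.7 kb in clone C8 (chr4:144019124-144462831) and 374.2 kb in wild type (chr4:145475865-145850074). The peaks nearest to an edge of a window lay 1.05 to 193.0 kb inside it, with enrichments of 6.82 to 60.7, and 0.048 to 683.7 kb outside it, with enrichments of 7.46 to 51.5, and no peak crossed an edge.

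Whether repeated sequence lies behind calls that differ by library was not tested: the lists hold no reads, no mapping quality and no sequence. The share of regions called in 1 list only was 9.04% in clone D, 19.8% in clone C8 and 35.3% in wild type within the windows, against 4.55%, 8.20% and 20.6% in the flanks. The part of depth in these shares was not tested.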

How the data were processed

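CTCF ChIP-seq peak lists of 3 libraries were used. Per the submitters' processing notes, bcl2fastq 1.8.4, Bowtie 1.0.0 and mm9 were used. For the peak caller, its settings and its control, the sources used here name nothing. Each library has 1 list deposited by the authors, with a fold enrichment (a ratio to a background that is not named) in column 7, a −log10 p in column 8 (lowest value 5) and a false discovery rate as a fraction in column 9. Starts were read as counted from 0 and are printed from 1.

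The windows and lists were chosen with earlier results of these data known, in which parts of the chromosome 2 and 4 windows had stood apart, so no test is given. Peaks were assigned by their midpoint. Density ratios carry exact conditional 95% intervals. Regions named are, per window, the 2 best shared by all lists, the strongest of each list alone, the best missing from each list alone, and the longest empty stretches. Python 3.11.15, pandas 2.3.3, numpy 2.4.6, SciPy 1.17.1 and matplotlib 3.10.9 were used; overlaps were tested on simulated data and recounted with bedtools 2.31.1, with 6 of 6 counts equal. Alternatives were flank length, shortened windows, list length, thresholds on p and FDR, overlap rule, and each window or clone left out. No sequence is printed because no mm9 genome was used here.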

Additional observations from a re-analysis of the deposited data

How the results depend on the processing

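A share or ratio was taken as moved when it left the counting interval of the reported value, and a count when it changed by over 1.5 times; 96 of 136 recomputed main values stayed inside these limits and 40 moved. A reciprocal overlap of 50%, extension by 500 bp, flanks 2 times as long and windows shortened by 250 kb at each edge moved none beyond these limits, although with the longer flanks the density intervals of clone C8 (0.711 to 0.983) and wild type (0.737 to 0.989) no longer held 1. Nor did the end of the chromosome 4 window 250 kb earlier move any, which was chosen after seeing the data, as was the limit on the false discovery rate (FDR). These main values pool the windows. Of 352 recomputed values of single windows 88 moved. On chromosome 4 the earlier end took clone D in wild type from 41.7% to 28.6% and clone C8 in wild type from 37.0% to 24.6%. Shortened windows took the wild-type private calls there from 32 to 21. Longer flanks took the wild-type density ratio on chromosome 2 from 1.35 to 1.03. Flanks of 0.5 times the length gave a density ratio of 1.08 in clone C8. Lists cut to the shortest length gave density ratios of 0.715 (C8) and 0.712 (wild type), overlap shares of 72.3% (C8 in D), 71.6% (C8 in wild type), 65.1% (wild type in D) and 69.2% (wild type in C8), and 28 (C8) and 40 (wild type) private calls. A −log10 p of at least 10 gave density ratios of 0.592 (C8) and 0.659 (wild type), overlap shares of 84.8% (D in C8), 87.0% (D in wild type), 83.9% (C8 in D), 84.9% (C8 in wild type), 76.9% (wild type in D) and 76.0% (wild type in C8), and 10 (D), 12 (C8) and 21 (wild type) private calls. An FDR limit of 0.05 gave density ratios of 0.682 (C8) and 0.650 (wild type), overlap shares of 74.2% (C8 in D), 66.4% (C8 in wild type), 86.5% (wild type in D) and 88.5% (wild type in C8), and 29 (C8) and 9 (wild type) private calls. By construction these thresholds remove weak peaks. Without the chromosome 2 window the density ratio in wild type was 0.710, the shares were 67.6% (D in C8), 57.1% (D in wild type) and 47.7% (C8 in wild type), and wild type had 62 private calls. Without the chromosome 4 window the density ratio in wild type was 1.23, the shares were 94.2% (D in C8), 84.9% (D in wild type), 66.9% (C8 in D) and 66.9% (C8 in wild type), and the private calls were 3 (D) and 30 (C8). Leaving out either chromosome 13 window moved none. Leaving out each clone gave 48 private calls in clone D (without C8), 86 in clone C8 (without D) and 128 to 138 in wild type.

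No paired analysis was possible because samples carry no replicate number in the labels and no test was run. Unknown depth limits every count of weak sites.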
